A study of Mus musculus with 21 samples.

Results

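The adiponectin receptor and AMPK axis was described here through 10 genes, taken by symbol from the deposited gene tables: the receptors Adipor1 and Adipor2, Cdh13 (T-cadherin), the adaptor Appl1, the AMPK catalytic subunits Prkaa1 and Prkaa2, Stk11 (the kinase LKB1), the nuclear receptor Ppara, the coactivator Ppargc1a (PGC-1α) and the deacetylase Sirt1. All 10 were listed in each of the 4 tables, among 22040 genes found in any table and 19399 found in all 4. Between the pools of libraries, 10.8% of all genes differed by 0.5 or more on the log2 scale with AdipoRon and 7.73% with genotype. At a log2 CPM of 1 or more, where all 10 genes lie, these shares were 8.52% and 3.88%. Of the 10 genes 0 differed by that much in either contrast, a count near these shares for so few genes. The largest differences were those of Ppargc1a, which was 24.9% lower in the AdipoRon pool than in the DMSO pool, of Cdh13, which was 17.8% lower in the Tau pool than in the WT pool, and of Prkaa2, which was 16.3% lower in the AdipoRon pool. These are differences between means over pools, with no test and no error, because each value used is a mean over libraries.

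Polyadenylated RNA was sequenced from 21 cultures of primary cortical neurons of newborn mice, treated for 24 h with AdipoRon, a small-molecule agonist of the adiponectin receptors, or with its vehicle DMSO. There were 5 Tau cultures with DMSO, 5 Tau cultures with AdipoRon, 5 WT cultures with DMSO and 6 WT cultures with AdipoRon. Tau cultures came from transgenic mice with hTau P301S, a mutant human tau cDNA driven by the prion promoter, and WT cultures from mice without it. By the sample labels, pre-formed fibrils were added to the transgenic neurons, at 3 µg/mL on day 7 and 18 days before treatment, while the study's text counts the 18 days to the RNA extraction. The labels name no seeding of WT neurons, and on that reading genotype and seeding cannot be told apart. All cultures had received 1 µM AraC (cytosine arabinoside) against dividing glia. The sample tags give the AdipoRon dose as 10 µM, and the protocol text of the samples names the same figure in mM. The study states in general that samples of the same animal were given each treatment, and the labels do not tie these cultures to animals.

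Adiponectin is a hormone of fat tissue whose receptors, AdipoR1 and AdipoR2, span the membrane with the amino end inside the cell. APPL1 binds their inner part, and signaling passes to AMPK, a kinase complex of a catalytic alpha subunit with beta and gamma subunits that senses a low energy charge. AMPK needs an upstream kinase, LKB1 or a calcium/calmodulin-dependent kinase kinase, and acts with SIRT1 on PGC-1α, a coactivator of mitochondrial genes. AdipoR2 is best known for acting through PPARα, the nuclear receptor of fatty acid oxidation. T-cadherin binds the large forms of adiponectin at the cell surface without a domain inside the cell.

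Each deposited table gives, for each gene, the authors' mean expression over the libraries it compares, as log2 CPM (read counts scaled to the size of the library, on a log2 scale). The DMSO pool holds 10 libraries (5 Tau, 5 WT), the AdipoRon pool 11 (5 Tau, 6 WT), the Tau pool 10 (5 DMSO, 5 AdipoRon) and the WT pool 11 (5 DMSO, 6 AdipoRon). The pools of each contrast share no library, but the contrasts split the same 21 libraries in different ways, and neither shows whether a difference lay in 1 genotype or in both. The study gives an approximate number of reads per sample for the whole set, and the depth of each single library is unknown. Over 19693 genes the AdipoRon minus DMSO difference had a median of 0.024 and a robust SD of 0.216, and 55.0% of genes were higher with AdipoRon. Over 19890 genes the Tau minus WT difference had a median of 0.002 and a robust SD of 0.140, and 50.7% were higher in the Tau pool. With each table centred on the median of the genes in all 4, these shares were 48.7% and 68.4%, so the counts of genes higher and lower between genotypes given below depend on the scaling. Whether the tables were normalized together or apart is not given in the sources used here. Every level set across pools below rests on the authors' scaling.

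Glial RNA was present beside that of neurons. Markers of neurons summed to between 3835 and 4398 CPM across the pools, from Snap25 at a log2 CPM of 9.97 (not scaled by length, as for the other markers) to Tubb3 at 7.66. Astrocyte markers summed to between 3770 and 4128 CPM, led by Gfap at 10.87 and down to Aqp4 at 8.22. Microglial markers (C1qa at 7.22 down to P2ry12 at 1.61) summed to 149 CPM in the Tau pool and 305 CPM in the WT pool. Oligodendrocyte lineage markers, from Mbp at 8.13 to Mog at 0.92, summed to 577 CPM in the Tau and 857 CPM in the WT pool. Endothelial and mural markers stayed between 36.2 and 41.2 CPM, with Pdgfrb the highest, Pecam1 the lowest and Cldn5 in no table. Fibroblast markers summed to 59.1 CPM in the Tau and 45.9 CPM in the WT pool, with Col1a2 the highest and Lum the lowest. In bulk RNA, fewer cells of a type and less RNA per cell cannot be told apart.

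The transcripts of both adiponectin receptors were abundant and nearly equal. Adipor1 (Entrez 72674, chr1:134415378-134433351, GRCm38.p6) had a log2 CPM of 7.15 in the DMSO pool, 7.31 in the AdipoRon pool, 7.20 in the Tau pool and 7.26 in the WT pool. Adipor2 (Entrez 68465, chr6:119353150-119417699) had 7.29, 7.33, 7.29 and 7.33 in the same order. Within each table Adipor1 stood at the 92.2nd to 93.8th percentile of all genes and Adipor2 at the 93.2nd to 93.9th. Scaled by the length of the longest transcript, Adipor1 gave 49.2% of the summed receptor transcripts in the DMSO pool, 51.1% in the AdipoRon pool, 50.1% in the Tau pool and 50.4% in the WT pool. Adipor1 was higher by 0.15 (11.2%) with AdipoRon and Adipor2 by 0.04 (2.95%). Between genotypes the Tau minus WT difference was -0.06 for Adipor1 and -0.04 for Adipor2. Among the 1463 genes within 0.5 of its level, Adipor1 lay at the 78.3rd percentile of the AdipoRon difference, well inside the middle 90% of these genes, which ran from -0.44 to 0.37.

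**Figure D1:**
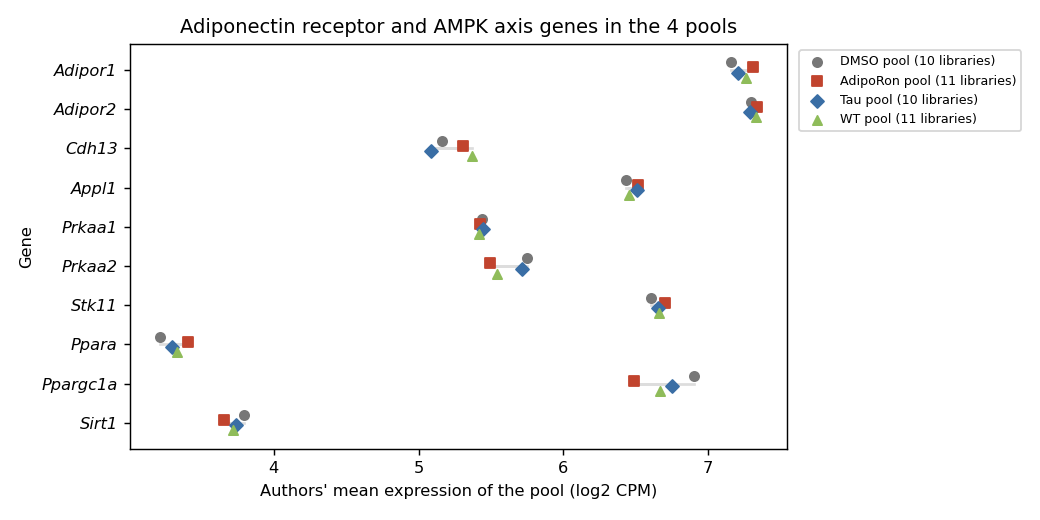
Authors' mean log2 CPM (x axis) of each of the 10 genes (y axis) in the DMSO (circle), AdipoRon (square), Tau (diamond) and WT (triangle) pools, with a grey line over the range and no error bars, since each point is 1 mean. The pools nearly coincide for Prkaa1, whose range is 0.03, and are most spread for Ppargc1a, from 6.49 with AdipoRon to 6.90 with DMSO.

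Cdh13 (Entrez 12554, chr8:118140017-119324929) was the gene of the 10 that differed most between genotypes. Its log2 CPM was 5.09 in the Tau pool and 5.37 in the WT pool, a Tau minus WT difference of -0.28, against 5.16 with DMSO and 5.31 with AdipoRon, a difference of 0.15. Among the 2909 genes nearest in level, 3.78% had a lower Tau minus WT value, and the 5th percentile of these genes was -0.25. Markers of microglia and of the oligodendrocyte lineage moved with the same contrast. Astrocyte markers had a median of 0.01, with 3 higher and 2 lower in the Tau pool (from -0.28 for Aqp4 to 0.04 for Aldoc). All 6 microglial markers were lower in the Tau pool (median -1.12), of which Cx3cr1, Csf1r, Aif1, Tmem119 and C1qa by 0.5 or more and P2ry12 by less, as were all 6 oligodendrocyte lineage markers (median -0.60, with Cspg4 at -0.79 and Pdgfra at -0.75). All 4 fibroblast markers were higher in the Tau pool (median 0.45, Dcn 0.85, Lum 0.57). Their part in the Cdh13 difference was not tested. Across all genes, 3.51% were lower by 0.5 or more in the Tau pool and 4.22% higher. In either direction 21.4% differed by 0.25 or more, which Cdh13 alone did among the 10. With each table centred on the median of the genes in all 4, Cdh13 was at -0.23, short of 0.25. At a log2 CPM of 1 or more, where Cdh13 lies, 475 genes were lower by 0.5 or more in the Tau pool and 80 higher.

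Neither adiponectin itself (Adipoq) nor its relative C1qtnf9 was among the genes of any table. The other ligand relatives and the receptor relatives (Paqr3 to Paqr9), 12 genes found in all tables, were mostly higher in the AdipoRon pool. Over all genes 55.0% were higher, the median was 0.024 and 10.8% reached 0.5 in either direction. Of these 12 relatives, 10 were higher and 2 lower, with a median of 0.19, and 0 reached 0.5. The highest mean level per kb of transcript was that of Paqr8, a membrane progestin receptor, at a log2 CPM of 7.25 with DMSO and 7.35 with AdipoRon, although C1qtnf4 was above it per kb in the DMSO and Tau pools. Between genotypes 6 were higher and 6 lower, with a median of -0.01.

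Appl1 (Entrez 72993, chr14:26918986-26970611), the adaptor of the receptors, had a log2 CPM of 6.43 with DMSO, 6.52 with AdipoRon, 6.51 in the Tau pool and 6.45 in the WT pool. Its AdipoRon minus DMSO difference was 0.08 and its Tau minus WT difference 0.05. The paralog Appl2, which can form dimers with APPL1, was at 5.93 with DMSO and 6.45 with AdipoRon, a difference of 0.53 (44.2%), or 0.497 with each table centred on its median. Per kb, Appl1 gave 37.1% of the summed APPL transcripts in the DMSO pool and 30.2% in the AdipoRon pool, a pair set side by side after its values were seen. By coding length these shares were 58.1% and 50.5%, so which adaptor is the more abundant depends on the length used. Among the 7 adaptor partners, which include the endosomal Rab5a and Rab21 and the insulin receptor substrates, 4 were higher and 3 lower with AdipoRon (median 0.03), and Akt1 had the highest level per kb.

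The AMPK catalytic subunits differed from each other in how they stood with AdipoRon. Prkaa1 (α1, Entrez 105787, chr15:5143861-5181899) was at 5.44 with DMSO, 5.42 with AdipoRon, 5.44 in the Tau pool and 5.42 in the WT pool. Prkaa2 (α2, Entrez 108079, chr4:105029649-105109898) was at 5.75 with DMSO, 5.49 with AdipoRon, 5.71 in the Tau pool and 5.54 in the WT pool. The AdipoRon minus DMSO difference was -0.01 for Prkaa1 and -0.26 for Prkaa2, and the Tau minus WT difference was 0.03 and 0.17. Of 2907 genes near Prkaa2 in level, 8.67% had a lower AdipoRon minus DMSO difference and 96.9% a lower Tau minus WT difference. Neuronal markers moved with the genotype contrast too, 7 of 8 being higher in the Tau pool (median 0.10, summed to 4327 CPM against 3937 CPM in the WT pool), and their part in the Prkaa2 difference was not tested. Per kb, Prkaa1 made up 57.3% of the summed alpha transcripts with DMSO and 61.4% with AdipoRon. On coding length, the mean share of Prkaa1 over the pools was 46.4% in place of 59.3%, so the larger of the subunits by transcript is not settled, while its share was higher with AdipoRon by either length.

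Of the regulatory subunits, the 5 beta and gamma genes had higher levels in the AdipoRon pool (median 0.15), 2 of them by 0.5 or more. With the tables centred on their medians 4 were higher and 1, Prkab1, lower. Prkab2 (β2, the scaffold subunit) was at 5.25 with DMSO and 5.93 with AdipoRon, a difference of 0.68 (60.1%) that 98.0% of genes did not reach. Prkag2 (γ2, which binds AMP and ATP) was at 5.40 and 5.92, a difference of 0.52 (43.7%), or 0.49 with each table centred on its median. Prkab1 was at 4.90 and 4.91. Prkag1, the most abundant of the beta and gamma genes per kb of the longest transcript, was at 5.68 and 5.76. Prkab1 thereby went from 65.6% of the summed beta transcripts per kb with DMSO to 54.5% with AdipoRon, and Prkag1 from 74.7% to 68.5% of gamma. By coding length these shares were 44.1% and 33.1% for Prkab1, and 64.9% and 57.7% for Prkag1. Which beta gene is the more abundant thus depends on the length used, while both shares were lower with AdipoRon by either length. The muscle subunit gene Prkag3 was close to the lower end of the tables, at a mean log2 CPM of -1.60. For comparison, 4.36% of all genes were higher by 0.5 or more with AdipoRon, 6.39% were lower by that much, and 30.9% differed by 0.25 or more, as did 2 of the 10 genes (Ppargc1a and Prkaa2).

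Stk11 (Entrez 20869, chr10:80115767-80130679), the upstream kinase LKB1, was nearly level across the pools. It was at 6.61 with DMSO, 6.70 with AdipoRon, 6.66 in the Tau pool and 6.66 in the WT pool, giving differences of 0.10 and -0.00. Its scaffold Cab39 (MO25) was at 7.96 with DMSO and 7.54 with AdipoRon, a difference of -0.42, and had the highest level per kb of the LKB1 partners and other AMPK kinases. The pseudokinase Strada, which holds LKB1 active, was at 4.48 and 4.61.

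The calcium-dependent route to AMPK showed the widest differences of the whole axis, in opposite directions. Camkk1 was at 5.16 with DMSO and 6.55 with AdipoRon, a difference of 1.39 (2.62-fold), which placed it at the 99.7th percentile of all genes. Camkk2, the family member best known as a kinase of AMPK, was at 7.96 with DMSO and 6.92 with AdipoRon, a difference of -1.05 (2.06-fold lower), at the 1.57th percentile. Per kb of the longest transcript, Camkk1 made up 14.3% of the summed CaMKK transcripts in the DMSO pool and 47.5% in the AdipoRon pool. This ratio too was set up after its values were seen. By exon union length these shares were 21.5% and 59.7%, and by coding length 13.3% and 45.4%. Which of the pair is the more abundant with AdipoRon thus depends on the length used. In the Tau and WT pools the shares by longest transcript were 30.4% and 29.0%. The Tau minus WT differences were 0.18 for Camkk1 and 0.08 for Camkk2. Map3k7 (TAK1), another kinase that can act on AMPK, was at 6.32 and 6.40.

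**Figure D2:**
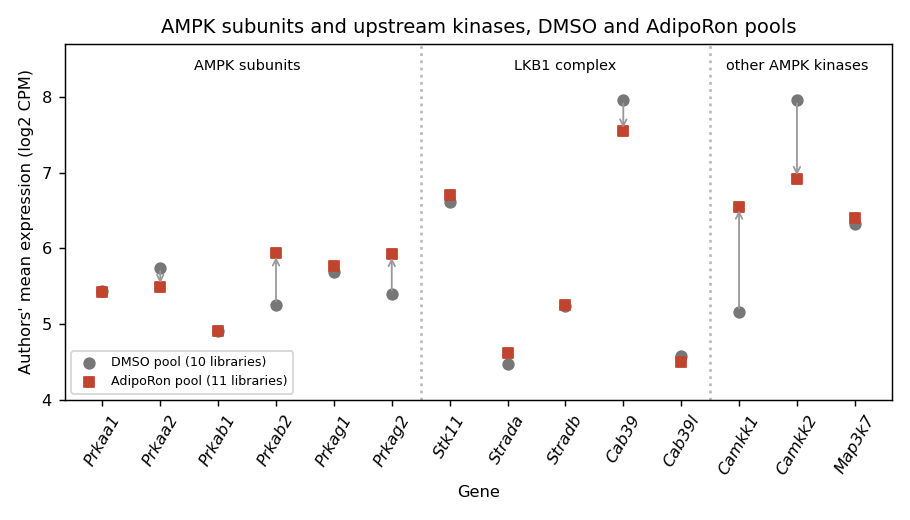
Authors' mean log2 CPM (y axis, starting at 4) of AMPK subunits, the LKB1 complex and other AMPK kinases (x axis) in the DMSO pool (circles, 10 libraries) and the AdipoRon pool (squares, 11 libraries), with arrows from DMSO to AdipoRon where they lie over 0.2 apart and Prkag3 (mean -1.60) left out. The AdipoRon point of Camkk1 lies 1.39 above its DMSO point and that of Camkk2 at -1.05 from its own, while Prkaa2 was lower and Prkab2 and Prkag2 were higher.

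Kinases of the AMPK family that LKB1 activates were mostly a little lower with AdipoRon. Over all genes 55.0% were higher and 10.8% reached 0.5 in either direction. Of these 12 kinase genes, 10 were lower and 2 higher (median -0.12), and 0 reached 0.5. Mark1, a microtubule affinity-regulating kinase, had the lowest value, -0.25, and Brsk1, a kinase of neuronal polarity with the highest level per kb of the list, was at 7.23 with DMSO and 7.08 with AdipoRon. Between genotypes 8 were higher and 4 lower (median 0.02).

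Genes of AMPK substrates were mostly higher with AdipoRon, with 10 of 13 higher, 3 lower and a median of 0.17, where 55.0% of all genes were higher. The CREB coactivator Crtc1 was at 6.49 with DMSO and 7.08 with AdipoRon, a difference of 0.59 (50.2%). Ulk1, which starts autophagy, had a difference of 0.28, and Acaca, the acetyl-CoA carboxylase of fatty acid synthesis, 0.25. Mff, a mitochondrial fission factor with the highest level per kb of this list, was at 7.05 and 6.91. These are transcript levels and say nothing of phosphorylation.

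Ppara (Entrez 19013, chr15:85734910-85806851) was among the lower genes of the 10, beside Sirt1 once levels were scaled by length. It was at 3.22 with DMSO, 3.40 with AdipoRon, 3.30 in the Tau pool and 3.33 in the WT pool, which placed it at the 43.5th to 48.9th percentile within the tables. Its AdipoRon minus DMSO difference of 0.19 (14.0%) was the highest of the 10, and 78.3% of all genes had a lower value. Among its relatives and partners, Rxrg, a retinoid X receptor, was at 2.75 with DMSO and 2.11 with AdipoRon, a difference of -0.64, and the coactivator Ncoa1 had the highest mean level per kb but was below Rxrb in the DMSO pool. Of the 7 genes of that list 5 were higher and 2 lower (median 0.08).

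Classical PPARα targets were mostly higher in the AdipoRon pool, with 9 of 11 higher, 2 lower and a median of 0.15, where 55.0% of all genes were higher. With the tables centred on their medians 8 were higher and 3 lower, where 48.7% of all genes were higher. Of the 11 targets 0 reached 0.5, against 10.8% of all genes. Pdk4, the kinase that turns off pyruvate dehydrogenase, was at 3.93 with DMSO and 4.26 with AdipoRon. Angptl4, an inhibitor of lipoprotein lipase, was at 3.94 in the Tau pool and 3.26 in the WT pool, a difference of 0.68, while 4 of the targets were higher and 7 lower in the Tau pool (median -0.04). Cpt1b and Ucp3 were found only in the AdipoRon and WT tables, at or below a log2 CPM of -1.75.

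Ppargc1a (Entrez 19017, chr5:51454249-52115853) stood farthest from 0 with AdipoRon of the 10. It was at 6.90 with DMSO, 6.49 with AdipoRon, 6.75 in the Tau pool and 6.67 in the WT pool. The AdipoRon minus DMSO difference was -0.41, below which lay 8.40% of all genes and 5.26% of the 2091 genes within 0.5 of its level, and the Tau minus WT difference was 0.08. Its paralog Ppargc1b was also lower with AdipoRon, at 4.74 with DMSO and 4.39 with AdipoRon (-0.35), and Pprc1, the third of the family, was at 4.82 and 4.84. Of the 9 genes of the PGC-1 family and its partners, 4 were higher and 5 lower with AdipoRon (median -0.02), and Esrra, a nuclear receptor partner, had the highest level per kb. Neuronal markers moved in the same direction as Ppargc1a and Prkaa2, 7 of 8 being lower with AdipoRon (median -0.21, from -0.29 for Snap25 to 0.11 for Slc17a7). Pdgfra, of oligodendrocyte precursors, had a difference of -0.57 with AdipoRon, the only marker of any list past 0.5 in that contrast. The summed neuronal markers were 4398 CPM with DMSO and 3835 CPM with AdipoRon, and their part in the differences of Ppargc1a and Prkaa2 was not tested.

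Genes known to depend on PGC-1α in mitochondria and in neurons did not lean to either side. With AdipoRon 5 of 10 were higher and 5 lower (median 0.02), from -0.23 for Cycs (cytochrome c) to 0.29 for Syt2 (a synaptotagmin). Idh3a, of the citric acid cycle, was at 7.74 with DMSO and 7.52 with AdipoRon (-0.22), and Cplx1, a synaptic complexin with the highest level per kb of the list, was at 9.71 and 9.76. Between genotypes the median was -0.00.

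The promoter windows of Ppargc1a and Prkaa2, the genes of the 10 that were lower by 0.25 or more with AdipoRon, are shown to set their base composition side by side. Both were read from RefSeq on GRCm38.p6 and hold 250 bases before and 50 after a start site of that table, 5′ to 3′ on the minus strand of the chromosome, at chr5:51567676-51567975 for Ppargc1a and chr4:105109849-105110148 for Prkaa2. The start used for Ppargc1a lies inside the gene's annotated span, so its window is that of 1 start and not of the gene as a whole. Capitals mark CpG dinucleotides.
Ppargc1a: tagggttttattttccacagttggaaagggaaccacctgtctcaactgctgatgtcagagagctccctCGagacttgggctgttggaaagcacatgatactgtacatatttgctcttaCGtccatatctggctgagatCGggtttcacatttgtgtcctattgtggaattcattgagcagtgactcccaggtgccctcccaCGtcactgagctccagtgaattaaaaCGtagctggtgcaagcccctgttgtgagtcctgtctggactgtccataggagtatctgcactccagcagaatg
Prkaa2: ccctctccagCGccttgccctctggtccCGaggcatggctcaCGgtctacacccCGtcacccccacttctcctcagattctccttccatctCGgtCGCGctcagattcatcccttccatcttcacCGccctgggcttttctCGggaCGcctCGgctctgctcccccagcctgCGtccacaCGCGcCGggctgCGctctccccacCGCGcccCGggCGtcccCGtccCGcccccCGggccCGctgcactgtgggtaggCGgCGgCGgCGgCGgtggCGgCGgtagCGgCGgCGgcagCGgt
The Ppargc1a window holds 5 CpG and 48.7% G or C, and the Prkaa2 window 35 CpG and 72.7%. The 8 other windows of these genes, Prkaa2 included, held 21 to 52 CpG and 61% to 82% G or C, against a median of 7 CpG and 52.7% over all 32851 windows of the table. These values of Ppargc1a hold for the 1 window of the table, and its other starts were not analysed here.

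Short motifs were counted in the windows on both strands. There were 9 windows for 8 of the genes, with Adipor1 having 2, and Cdh13 and Appl1 not matched. The short CREB motif TGACG was in 7 windows of 7 genes, Ppargc1a and Prkaa2 included, and in 20.8% of all windows, while its full palindrome TGACGTCA was in 0 of the 9 and 1.79% of all. The Sp1 motif GGGCGG was in 7 windows of 6 genes and 35.7% of all, and it was in neither the Ppargc1a nor the Adipor2 window. The FOXO motif TGTTTAC was in 3 windows (those of Adipor1, Adipor2 and Stk11) and 3.65% of all windows. The ERR motif TCAAGGTCA was in 0 of the 9 and in 0.423% of all. TGACG, TGACGTCA and GGGCGG each hold a CpG, and 8 of the 9 windows held 21 to 52 CpG against a median of 7 over all windows. The shares over all windows are not matched for CpG, so no enrichment is read from these counts. A match is a string of letters and no evidence of binding.

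Sirt1 (Entrez 93759, chr10:63319005-63339035) was near the middle of all genes. It was at 3.80 with DMSO, 3.66 with AdipoRon, 3.74 in the Tau pool and 3.72 in the WT pool, giving an AdipoRon minus DMSO difference of -0.14 (-9.27%) and a Tau minus WT difference of 0.02. The other sirtuins and the enzymes of NAD synthesis had a median difference of 0.16 with AdipoRon. Of these 10 genes, 7 were higher and 3 lower, where 55.0% of all genes were higher. Nampt, the rate-limiting enzyme of NAD salvage, was at 5.62 with DMSO and 6.10 with AdipoRon (0.49), just under the threshold of 0.5. Sirt2, the most abundant per kb and a gene also known from myelinating cells, was at 7.14 in the Tau pool and 7.67 in the WT pool (-0.54, or -0.48 with the tables centred), and 2 of the 10 were higher and 8 lower in the Tau pool (median -0.06). The oligodendrocyte lineage markers given above were lower in the same pool, and their part in the Sirt2 difference was not tested.

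Ordered by mean level per kb of the longest transcript, the 10 genes fell into tiers. Stk11, Adipor1 and Adipor2 were highest, at log2 CPM per kb of 5.19, 5.07 and 5.05, near the 90th percentile of 15711 genes with a length. Ppargc1a followed at 4.00, Appl1 at 3.54, Cdh13 at 3.26, Prkaa1 at 3.17 and Prkaa2 at 2.63. Sirt1 and Ppara were lowest, at 1.52 and 1.48, near the 33rd percentile. The ranges over the pools overlapped between Adipor1 and Adipor2, between Cdh13 and Prkaa1, and between Sirt1 and Ppara, so no order is given within these. The length used matters for part of the order. Cdh13 was 6th by longest transcript and 8th by exon union or coding length, and Stk11 was 1st by longest transcript and 3rd by each of the others. By coding length Prkaa2 was 6th and Prkaa1 7th, while by exon union Prkaa1 was 5th and Prkaa2 7th. Adipor2 was 3rd by longest transcript and 1st by coding length.

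**Figure D3:**
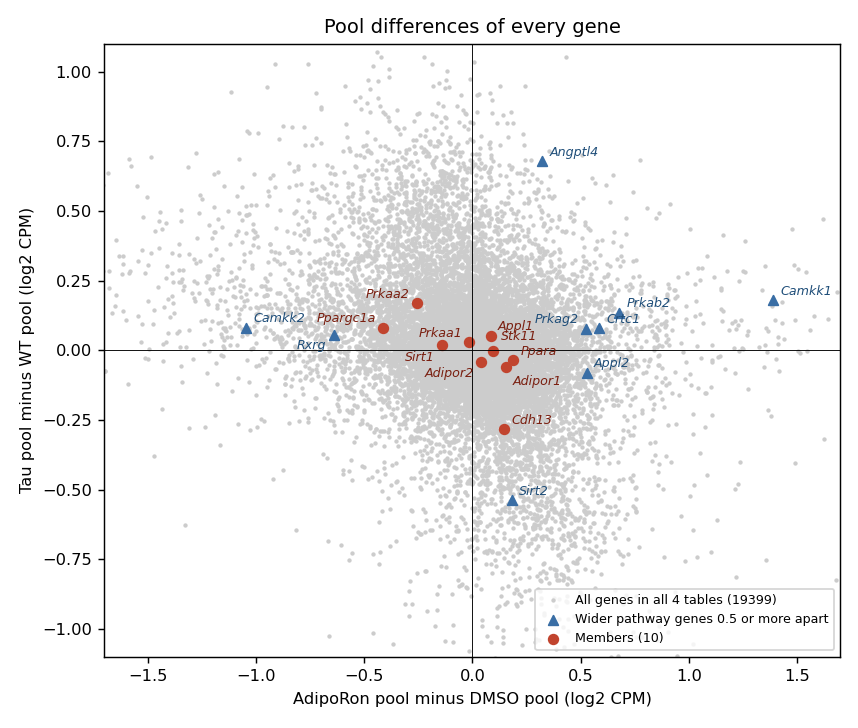
AdipoRon minus DMSO (x axis) against Tau minus WT (y axis) pool differences in log2 CPM of the 19399 genes in all 4 tables (grey, 198 of them outside the axes), the 10 genes (circles) and the pathway genes that were 0.5 or more apart (triangles). The contrasts divide the same 21 libraries, so no relation between the axes is read. The 10 genes lie within -0.41 to 0.19 on the x axis and -0.28 to 0.17 on the y axis, while Camkk1 and Camkk2 lie at 1.39 and -1.05 on the x axis.

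Across the 10 genes, 6 were higher and 4 lower in the AdipoRon pool, with a median of 0.06, and 4 lay within 0.1 of 0. In the genotype contrast 5 were higher and 5 lower in the Tau pool, with a median of 0.01, and 8 lay within 0.1 of 0. With each table centred on the median of the genes in all 4, 8 were higher and 2 lower, Adipor2, Stk11 and Ppara changing sign. The wider axis of 11 lists held 107 further genes, of which 103 were in all tables. With AdipoRon 65 of these were higher and 38 lower (median 0.08), and 7 (6.80%) differed by 0.5 or more, against 55.0% higher and 10.8% past 0.5 over all genes. Higher were Camkk1, Prkab2, Crtc1, Appl2 and Prkag2, and lower were Camkk2 and Rxrg. At a log2 CPM of 1 or more, 7.07% of the listed genes and 8.52% of all genes differed by 0.5 or more. With log2(CPM + 1) these shares were 6.80% and 5.85%, so which is larger depends on how genes of low level are handled. Between genotypes 51 of the 103 were higher and 52 lower (median -0.00). Only Angptl4 and Sirt2 (1.94%) differed by 0.5 or more, against 7.73% of all genes. At a log2 CPM of 1 or more these shares were 2.02% and 3.88%, and with log2(CPM + 1) 1.94% and 2.18%.

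**Figure D4:**
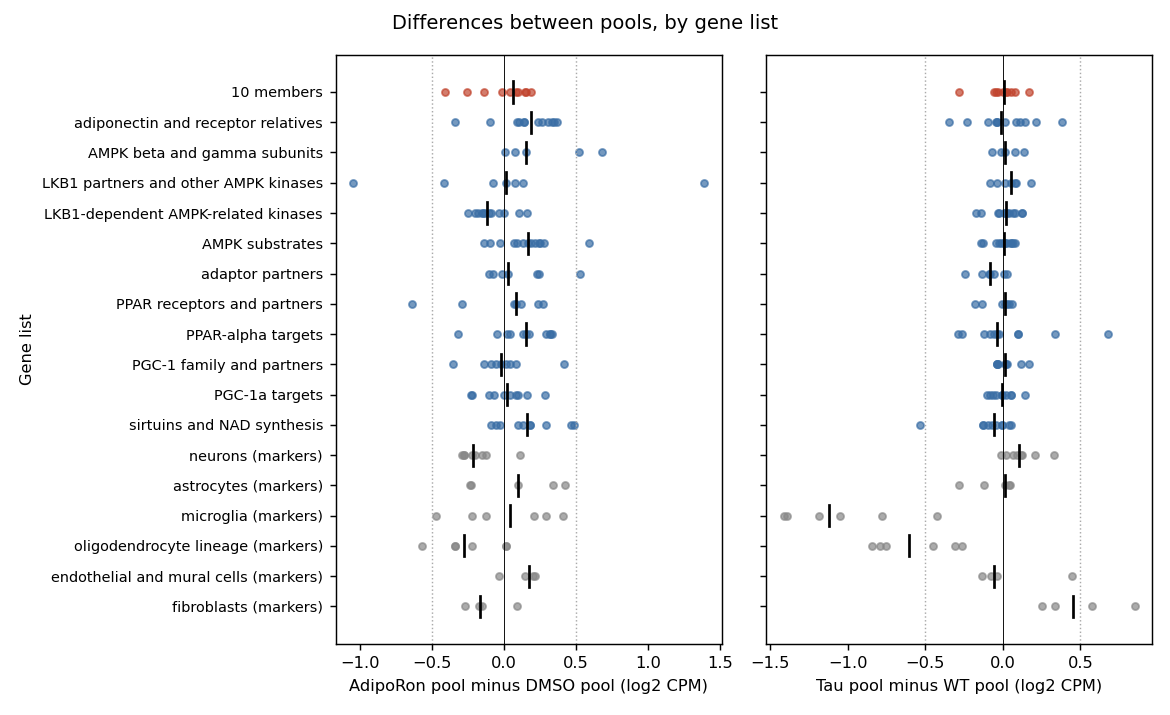
Pool differences in log2 CPM (x axes, AdipoRon minus DMSO on the left, Tau minus WT on the right) of the 10 genes, of each pathway list and of the cell type markers (y axis). Each point is a gene in all 4 tables, black bars are list medians and dotted lines mark 0.5 in each direction. Markers of microglia (median -1.12) and of the oligodendrocyte lineage (median -0.60) lie to the left in the genotype contrast, while pathway medians run from -0.08 to 0.05 there.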

How the data were processed

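Polyadenylated RNA of 21 cultures (10 Tau, 11 WT) had been sequenced. According to the study's methods and the submitters' processing notes, STAR aligned the reads to mm10, RSEM gave the gene quantities and edgeR compared the groups. Other sources used here name GRCm39 and Rsubread, and versions, strand, library normalization and filters are not given in the sources used here. The values used are the log2 CPM that the authors deposited, a mean over the libraries of each of 4 tables. Each table also has 5 columns of the authors' own comparison (log2 fold change, likelihood ratio, p-value, false discovery rate and call), which were not used. No column of values per library was left unmapped.

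Pools were subtracted gene by gene in Python 3.11.15 with pandas 2.3.3 and numpy 2.4.6, over genes in both tables of a contrast, and counted at 0.5. The robust SD is a scaled median absolute deviation, and nearby genes lie within 0.5 log2 CPM. The subtraction was also run on simulated libraries with planted changes larger than those of any of the 10 genes. That run does not show how well smaller differences are recovered. These means allow no test, error or interval, and the number and depth of libraries limit the precision. Which libraries each table pools was taken from the authors' names of the comparisons and checked in part on 19399 genes. Summed CPM of the treatment pools, weighted by library numbers, matched that of the genotype pools with an SD of 0.00486 of the log2 ratio. This check cannot tell DMSO from AdipoRon, or Tau from WT, since exchanging either pair only swaps weights of 10 and 11 libraries. The directions of all differences rest on those names. Lengths came from GENCODE vM39 and promoters from RefSeq (GRCm38.p6). Read sharing with near-identical or antisense genes was not assessed.

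The members and gene lists were chosen with earlier results of these data known. Named are the 10 genes, listed genes 0.5 or more apart in a contrast, the gene of highest length-scaled level of each list, and the highest and lowest marker of each cell type with any marker past 0.5. Some genes that this rule names are not reported here. Listed genes named below 0.5 without being the highest per kb were chosen after their values were seen. Alternatives were other scalings, filters, thresholds, lengths and a pseudocount, and, chosen after seeing the data, a fit that balances genotypes and treatments and an exchange of tables.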

Additional observations from a re-analysis of the deposited data

How the results depend on the processing

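The differences of the 10 genes moved by less than 0.1 under every scaling, filter and pseudocount tried, and under the fit of treatment and genotype factors, but centring turned the signs of Adipor2 (0.01), Stk11 (0.05) and Ppara (0.02) between genotypes. Ppargc1a ran from -0.44 to -0.41 and Prkaa2 from -0.29 to -0.25 with AdipoRon, and Cdh13 from -0.28 to -0.23 between genotypes. Counted at 0.25, 2 of the 10 passed with AdipoRon and 1 between genotypes, in place of 0 at 0.5. The 1 was Cdh13, which stayed short of 0.25 with the tables centred (-0.23). Of the listed pathway genes 30 and 7 passed at 0.25, in place of 7 and 2. At 1, 2 and 0 of the pathway genes passed. Centring on the median of genes in all 4 tables put Prkag2 at 0.49, Appl2 at 0.497 and Sirt2 at -0.48, which left 1 pathway gene past 0.5 between genotypes.

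Over all genes, those higher and lower by the threshold with AdipoRon numbered 859 and 1259 at 0.5, 530 and 688 at log2 CPM of 1 or more, 3127 and 2965 at 0.25, 133 and 344 at 1, and 447 and 706 with log2(CPM + 1). Between genotypes there were 839 and 699, then 80 and 475 with the level filter, 2500 and 1761 at 0.25, 25 and 101 at 1, and 56 and 377 with log2(CPM + 1). Length changed subunit shares: the mean Prkaa1 share was 46.4% by coding length, Prkab1 68.3% by exon union and 38.0% by coding length, and Prkag1 61.0% by coding length. The check of the pools gave an SD of 0.0108 with equal weights and 0.183 with the WT and AdipoRon tables exchanged.

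Each pool is 1 mean, and no library was left out. No paired analysis was possible because each table used here gives 1 mean per gene and pool.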
